A study of Mus musculus with 6 samples.

Results

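Reactive astrocyte genes are the transcripts by which astrocytes that respond to injury or inflammation are usually recognised. Here the group held 10 genes, Gfap, Vim, Osmr, Stat3, Cd44, Serpina3n, Lcn2, Timp1, Ptx3 and S100a6, of the 52550 genes with read counts. They were chosen by name, with earlier results of these data known, and each symbol was matched to its Ensembl gene. All 10 had at least 10 reads in each of the 6 libraries and were tested. Astrocytes respond to damage by building up intermediate filaments and by releasing acute phase proteins, protease inhibitors and matrix binding proteins. Cytokines of the interleukin-6 family, among them oncostatin M, drive much of this response through receptors that share the gp130 chain and through the transcription factor STAT3. Several of these genes are also used by microglia, vascular cells or fibroblasts, so a change in whole tissue RNA does not by itself place them in astrocytes.

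RNA came from the hippocampus of male C57BL/6 J mice. By the study's methods they were injected at 8 weeks of age with adeno-associated virus (AAV) into CA1 of both hemispheres. Those methods give control shRNA to control mice and, to the others, shRNA against L-DL, the long isoform of the RNA binding protein hnRNP DL. The 3 control libraries are titled WT, a title that does not state an injection, and the other 3 are labelled L-DL KD. The L-DL virus carried 4 shRNAs, each behind an H1 promoter that is active in any transduced cell, beside a zsGreen reporter under the neuronal CamkIIα promoter, and the study's methods give the control virus at a higher titre. One label calls the treated animals hnRNP DL-/-, whereas others and the methods call them knockdowns, and the genetic background is wild type in both groups. No label names a batch, so no within-batch value could be given, and p-values describe the spread between these libraries. Reads counted on genes numbered 16052529 to 16995425 in the controls and 16525467 to 17913064 in the other group. Hnrnpdl, which encodes both isoforms, had 2862, 3120 and 2689 counts in the controls and 3939, 2680 and 2904 in the L-DL KD-labelled libraries. Its log2 fold change was 0.03 (SE 0.12, adjusted p = 0.898, edgeR quasi-likelihood test), so gene counts did not show a knockdown, and isoforms were not counted apart. The paper assessed the knockdown by immunoblots of L-DL protein in the injected hippocampus and reports reduced L-DL there. Gene counts do not measure protein, and groups are named here by their labels. Homeostatic astrocyte markers were present in every library, with Slc1a2, the main astrocytic glutamate transporter, at 2175 to 3047 CPM (counts scaled to library size).

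The sequences that bear on the results are of 2 kinds. The first are alternative coding segments of Cd44 and Stat3, read from GENCODE transcripts on GRCm38, with the alternative bases in capitals and 20 transcript bases on either side in lower case. The Cd44 segment is the 207-base variable exon next to the constant 3′ exons (chr2:102831330-102831536, minus strand, coding sequence of Cd44-206). Cd44-203 joins the flanking constant exons directly, which gives the standard form that lacks all variable exons. The Stat3 segments are a 50-base stretch at the start of the penultimate coding exon (chr11:100889541-100889590, minus strand), whose loss gives the truncated STAT3β with another C-terminus, and 3 bases at a tandem donor site (chr11:100893074-100893076, minus strand).
Cd44 with the exon: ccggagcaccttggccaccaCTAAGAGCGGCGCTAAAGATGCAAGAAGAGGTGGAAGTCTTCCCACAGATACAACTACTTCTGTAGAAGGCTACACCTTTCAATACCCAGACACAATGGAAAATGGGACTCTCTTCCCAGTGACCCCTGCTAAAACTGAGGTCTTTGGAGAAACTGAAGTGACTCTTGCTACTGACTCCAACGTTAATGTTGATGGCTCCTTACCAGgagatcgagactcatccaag
Cd44 without the exon: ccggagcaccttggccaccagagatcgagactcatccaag
Stat3, 50-base segment kept: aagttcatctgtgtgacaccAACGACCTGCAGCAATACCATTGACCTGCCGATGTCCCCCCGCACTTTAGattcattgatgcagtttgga
Stat3, 50-base segment lost: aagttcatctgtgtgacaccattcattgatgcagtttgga
Stat3, 3-base segment kept: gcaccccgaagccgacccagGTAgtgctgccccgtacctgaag
Stat3, 3-base segment lost: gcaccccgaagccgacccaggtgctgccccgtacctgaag

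The second are promoters of Gfap, Lcn2 and Ptx3, the members with a STAT or C/EBP match in the search described next, shown from 250 bases before to 10 bases after the RefSeq start site (GRCm38.p6). A promoter entry of 300 bases was found for each of the 10 genes and was searched on both strands for TTCNNNGAA, the form bound by STAT factors, TTNNGCAA, a relaxed C/EBP form, and TGANTCA, the AP-1 form. Capitals mark the matches, which do not overlap each other.
Gfap (chr11:102897191-102897450, minus strand): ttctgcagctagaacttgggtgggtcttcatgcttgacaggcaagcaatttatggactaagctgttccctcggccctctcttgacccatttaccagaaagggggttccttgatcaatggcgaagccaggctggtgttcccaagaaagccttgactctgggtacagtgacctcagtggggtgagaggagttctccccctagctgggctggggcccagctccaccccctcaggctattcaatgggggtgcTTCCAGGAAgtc
Lcn2 (chr2:32387730-32387989, minus strand): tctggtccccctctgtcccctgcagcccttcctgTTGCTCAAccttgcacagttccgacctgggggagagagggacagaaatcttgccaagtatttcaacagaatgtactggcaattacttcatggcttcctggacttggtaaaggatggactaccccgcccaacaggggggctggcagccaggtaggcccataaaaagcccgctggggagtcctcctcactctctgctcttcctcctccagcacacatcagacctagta
Ptx3 (chr3:66219637-66219896, plus strand): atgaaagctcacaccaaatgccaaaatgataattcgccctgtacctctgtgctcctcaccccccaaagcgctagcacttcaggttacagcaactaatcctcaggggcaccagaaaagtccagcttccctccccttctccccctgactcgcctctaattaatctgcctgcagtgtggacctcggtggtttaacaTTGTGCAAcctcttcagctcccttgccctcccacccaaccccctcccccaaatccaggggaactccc

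Among the 10 members, the STAT form was found in the promoter of Gfap alone, starting 2 bases before the start site, and 8.3% of the 32851 promoters in the table hold it. The C/EBP form was found at base 216 before the start of Lcn2 and at base 57 before the start of Ptx3, against 10.8% of all promoters. The AP-1 form was found once, in Osmr, from base 4 after the start, against 7.81% of all promoters. A match is only a run of letters in this window.

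Most of the reactive astrocyte genes rose, but Gfap, their best known member, was not among them. Of the 10 genes, 8 were higher in the L-DL KD-labelled libraries (adjusted p under 0.05, edgeR quasi-likelihood test), 0 were lower, and Gfap and Stat3 did not pass. DESeq2 and limma-voom likewise called 8 higher and 0 lower, and 0 were lower at an unadjusted p under 0.05. Over all 17621 genes tested 30.5% were called, and 15.6% were higher and 15.0% lower. The 3 L-DL KD libraries lay above all 3 controls for the same 8 genes, compared with 23.8% of tested genes. The median log2 fold change of the members was 1.03, and that of all tested genes was 0.01. Levels below are CPM scaled by TMM, given for replicates 1 to 3 of each group, and means are given with SD (n = 3).

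**Figure D1:**
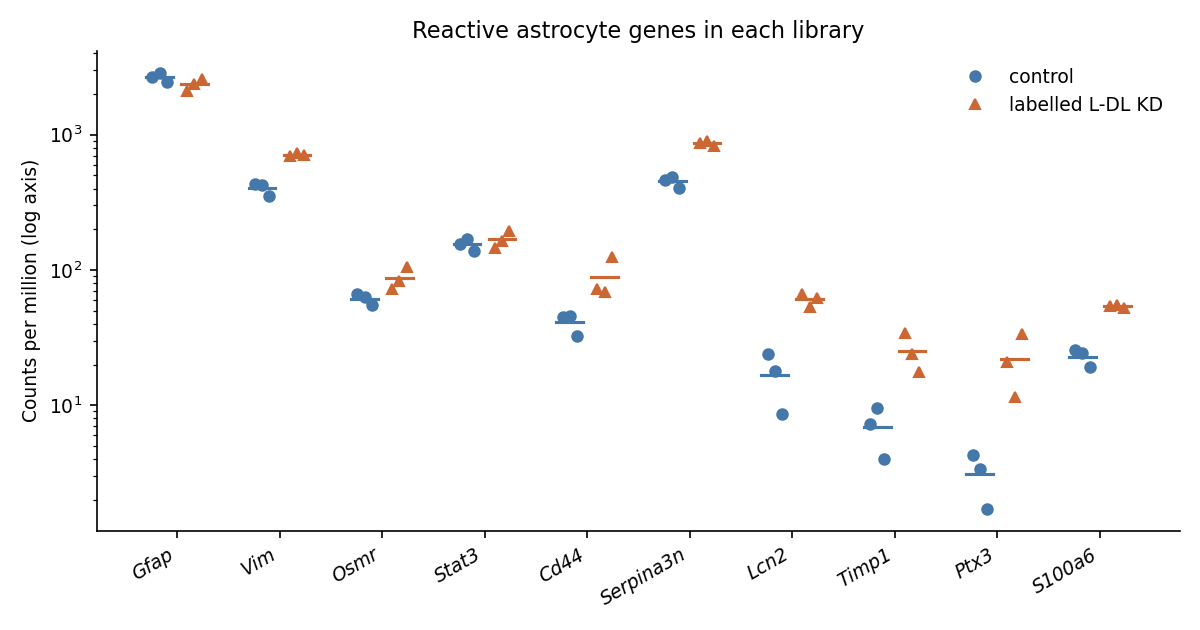
Level (CPM, log axis) of the 10 reactive astrocyte genes in each library, with control libraries as circles, libraries labelled L-DL KD as triangles and group means as bars. Symbols overlap in height between the groups for Gfap and Stat3 only, and Ptx3 spans 1.71 to 33.9 CPM over the 6 libraries.

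Gfap (ENSMUSG00000020932, chr11:102887336-102900912) encodes the glial fibrillary acidic protein, the intermediate filament protein that defines astrocytes in most stainings. It had 2661, 2879 and 2441 CPM in the controls and 2109, 2356 and 2602 CPM in the L-DL KD-labelled libraries. The groups overlapped, and the highest single library was a control. The log2 fold change was -0.18 (SE 0.10, adjusted p = 0.228). Its value stayed negative, between -0.25 and -0.09, in every alternative fit that was run.

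Vim (ENSMUSG00000026728, chr2:13573927-13582826) encodes vimentin, the filament protein that assembles with GFAP in reactive astrocytes and is also made by vascular and mesenchymal cells. It had 431, 427 and 353 CPM in the controls and 700, 732 and 703 CPM in the L-DL KD-labelled libraries. The groups lay well apart, from 403 ± 43.8 to 711.5 ± 17.6 CPM, and the L-DL KD libraries agreed closely with each other. Vim rose by a log2 fold change of 0.82 (SE 0.09, adjusted p = 0.000583). The other filament proteins and linkers of these cells, Nes, Synm, Des and Plec, gave 0 calls of 4 by edgeR, DESeq2 and limma-voom, with 1 at an unadjusted p under 0.05. Nes, the nestin gene, had the highest log2 fold change, 0.42 (adjusted p = 0.0673), followed by Synm with 0.27 (adjusted p = 0.148). Des stood at 0.26 (adjusted p = 0.595), and Plec, which encodes the linker plectin, at -0.07 (adjusted p = 0.529).

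The ratio of Vim to Gfap counts within a library sets both filament genes against each other without any scaling. It was 0.162, 0.148 and 0.145 in the controls and 0.332, 0.311 and 0.270 in the L-DL KD-labelled libraries, with no overlap. A two-sided exact permutation test gave p = 0.1, the smallest value that 3 against 3 libraries allow. The ratio of Serpina3n to Gfap likewise went from 0.164 to 0.174 in the controls to 0.315 to 0.413 in the other group (exact permutation p = 0.1). Ratios to Gfap of Lcn2, Timp1 and Ptx3 did not overlap either, with differences in mean log2 ratio of 2.15, 2.08 and 2.97. These 5 ratios share the Gfap counts and so are not separate pieces of evidence.

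**Figure D2:**
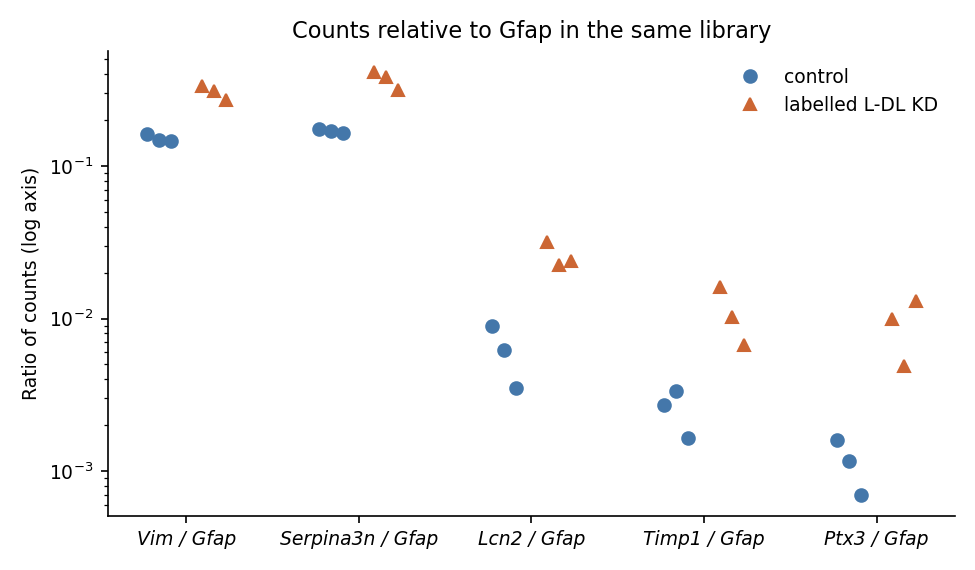
Counts of 5 reactive astrocyte genes divided by the Gfap count of the same library (log axis), with controls as circles and libraries labelled L-DL KD as triangles. For each of the 5 genes every triangle lies above every circle.

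Osmr (ENSMUSG00000022146, chr15:6813577-6874969) encodes the oncostatin M receptor chain that pairs with gp130. It had 66.1, 63.0 and 55.1 CPM in the controls and 72.0, 82.7 and 104.8 CPM in the L-DL KD-labelled libraries. The groups did not overlap, but L-DL KD replicate 1 was near the highest control. Osmr rose by a log2 fold change of 0.49 (SE 0.14, adjusted p = 0.0291), and this call was lost when L-DL KD replicate 2 or any 1 of the 3 controls was left out, at adjusted p = 0.0548 without that library and 0.0595, 0.0771 and 0.108 without control replicates 1 to 3 (edgeR).

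Stat3 (ENSMUSG00000004040, chr11:100885098-100939540) encodes the transcription factor downstream of these receptors. It had 155, 171 and 138 CPM in the controls and 146, 165 and 194 CPM in the L-DL KD-labelled libraries. The groups overlapped, with a log2 fold change of 0.12 (SE 0.12, adjusted p = 0.481). The value was 0.01 without L-DL KD replicate 3, 0.22 without L-DL KD replicate 1, 0.04 without control replicate 3 and 0.19 without control replicate 2, and it passed in none of the alternative fits. Its mRNA level says nothing about the phosphorylated protein, which was not measured here. Its last bases overlap exons of Stat5a on the opposite strand over 72 bases, and the strand setting of the counting is not given in the sources used here.

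Of the 13 other receptors and JAK-STAT genes of this pathway, 5 rose. Socs3, the feedback inhibitor that STAT3 induces, rose most, from 20.2, 21.2 and 12.9 CPM to 45.0, 29.9 and 66.8 CPM. Its log2 fold change was 1.38 (SE 0.30, adjusted p = 0.010). Il6ra, the interleukin-6 receptor chain, rose by 1.1 (adjusted p = 0.00563), and Il6st, which encodes gp130, by 0.53 (adjusted p = 0.00136). Stat5b (0.28, adjusted p = 0.0285) and Tyk2 (0.26, adjusted p = 0.0348) rose by less. The remaining receptor chains did not pass, with Lifr at 0.12 (adjusted p = 0.517) Cntfr at -0.29 (adjusted p = 0.195) and the kinase gene Jak2 at -0.23 (adjusted p = 0.0945). The number of these genes called higher ranged from 3 to 6 over the alternative fits.

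Of 7 ligand genes of these receptors, Il6 and Cntf were too low to test, and 0 of the other 5 passed by edgeR, with 1 (Lif) at an unadjusted p under 0.05 and 1 called by DESeq2. Osm, the ligand of the receptor encoded by Osmr, had 1.85, 2.18 and 1.27 CPM in the controls and 1.6, 2.58 and 3.10 CPM in the other group (log2 fold change 0.45, adjusted p = 0.353). Lif had the highest value, 0.89 (adjusted p = 0.101), then Clcf1 with 0.54 (adjusted p = 0.124). Il11 was lowest with -0.47 (adjusted p = 0.460), and Ctf1 stood at -0.04 (adjusted p = 0.937).

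Cd44 (ENSMUSG00000005087, chr2:102811141-102901665) encodes the hyaluronan receptor that astrocytes and many immune cells carry. It had 45.2, 45.3 and 32.4 CPM in the controls and 72.7, 69.1 and 124 CPM in the L-DL KD-labelled libraries. The groups did not overlap, and L-DL KD replicate 3 stood above the other two. Cd44 rose by a log2 fold change of 1.11 (SE 0.24, adjusted p = 0.00954). Of 8 hyaluronan synthases and CD44 partners, 4 rose and 1 fell. Spp1, which encodes osteopontin, a CD44 ligand also made by activated microglia, rose by 2.23 (adjusted p = 0.000197), and Has2, a hyaluronan synthase, by 1.38 (adjusted p = 0.0262). Msn and Rdx, which encode the linkers moesin and radixin, rose by 1.08 (adjusted p = 0.000483) and 0.29 (adjusted p = 0.00929). Has3 fell, with a log2 fold change of -0.79 (adjusted p = 0.0177), and Hmmr, a further hyaluronan receptor, did not pass at -0.83 (adjusted p = 0.130). Calls in this list ran from 3 to 4 higher and from 0 to 1 lower over the alternative fits.

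Serpina3n (ENSMUSG00000021091, chr12:104406729-104414329) encodes a secreted serine protease inhibitor that is among the most used markers of reactive astrocytes. It had 464, 488 and 401 CPM in the controls and 872, 906 and 820 CPM in the L-DL KD-labelled libraries. The groups lay far apart, and per kilobase of exon its level went from 219 to 420 CPM per kb, the second highest of the members after Gfap at 631 and 558. Serpina3n rose by a log2 fold change of 0.94 (SE 0.09, adjusted p = 0.000339). Its neighbouring paralogs can share reads with it. Of 10 of them, 5 were tested and 0 were called by edgeR, with 1 (Serpina3f) lower at an unadjusted p under 0.05 and by DESeq2, and their summed level was 20.1 to 37.9 CPM in the controls and 10.7 to 25.9 CPM in the other group. Serpina3h had a log2 fold change of 1.42 (adjusted p = 0.132), and Serpina3f (-1.22, adjusted p = 0.0967) and Serpina3i (-0.72, adjusted p = 0.199) had the lowest values. Serpina3m, with 6, 7 and 0 counts in the controls and 10, 15 and 13 in the other group, entered the test only through the latter.

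Lcn2 (ENSMUSG00000026822, chr2:32384633-32388252) encodes lipocalin 2, a secreted protein that binds iron carriers and is released in inflammation. It had 23.9, 17.8 and 8.57 CPM in the controls and 66.8, 53.2 and 61.8 CPM in the L-DL KD-labelled libraries. The groups did not overlap although the controls differed among themselves 2.79-fold. Lcn2 rose by a log2 fold change of 1.85 (SE 0.30, adjusted p = 0.00327). Neutrophils also make lipocalin 2, and the 6 neutrophil markers summed to 1.14 to 4.31 CPM in the controls and 1.57 to 4.71 CPM in the other group, with S100a8 and S100a9 each under 2 CPM in every library. Of its reported receptors, Slc22a17 and Lrp2 did not pass, at -0.27 (adjusted p = 0.358) and 0.21 (adjusted p = 0.778), while Mc4r fell at low level with -0.98 (adjusted p = 0.0329). Between 0 and 2 of these receptors were called lower over the alternative fits.

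Timp1 (ENSMUSG00000001131, chrX:20870166-20874735) encodes a secreted inhibitor of matrix metalloproteinases. It had 7.21, 9.59 and 4.0 CPM in the controls and 34.0, 24.1 and 17.5 CPM in the L-DL KD-labelled libraries. The groups did not overlap, and Timp1 rose by a log2 fold change of 1.86 (SE 0.34, adjusted p = 0.00503). It lies within the span of Syn1, a neuronal gene on the opposite strand, with 0 shared exon bases. Of 12 metalloproteinases and other inhibitors, 5 were called higher and 1 lower, and 3 were called higher without control replicate 2. One of the 5, Mmp3, had 4, 2 and 3 counts in the controls and 114, 35 and 12 in the other group, so it entered the test only through the group where it was high. Mmp2 rose by 1.94 (adjusted p = 0.000179), Timp3 by 0.73 (adjusted p = 0.0069) and Timp2 by 0.56 (adjusted p = 0.00869). Mmp24, a membrane type enzyme, fell with -1.02 (adjusted p = 0.00567), and Mmp9 did not pass at -1.0 (adjusted p = 0.202).

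Ptx3 (ENSMUSG00000027832, chr3:66219910-66225805) encodes a long pentraxin, a soluble pattern recognition protein of the acute phase. It had 4.25, 3.35 and 1.71 CPM in the controls and 20.9, 11.4 and 33.9 CPM in the L-DL KD-labelled libraries. It was the lowest member in the controls and had the highest log2 fold change of the group, 2.82 (SE 0.44, adjusted p = 0.00271). The L-DL KD libraries differed 2.96-fold among themselves, yet the lowest lay above the highest control. Ptx3 lies within the span of Veph1 on the opposite strand, which had 0 to 5 counts in each library. The neuronal pentraxins moved the other way, with Nptx2 at -0.94 (adjusted p = 0.0104) and Nptx1 at -0.53 (adjusted p = 0.000952), and Nptxr did not pass at -0.18 (adjusted p = 0.427).

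S100a6 (ENSMUSG00000001025, chr3:90612882-90624181) encodes a small calcium binding protein. It had 25.4, 24.2 and 19.1 CPM in the controls and 54.3, 55.4 and 52.5 CPM in the L-DL KD-labelled libraries. The L-DL KD libraries nearly coincided, and S100a6 rose by a log2 fold change of 1.24 (SE 0.11, adjusted p = 0.000302). Of 7 other S100 genes tested, 4 rose and 1 fell. S100a11 rose by 1.03 (adjusted p = 0.00519) and S100a10 by 0.99 (adjusted p = 0.000493). S100b, which resting astrocytes and oligodendrocytes express, fell from 79.9, 76.3 and 81.8 CPM to 55.8, 49.0 and 39.7 CPM (log2 fold change -0.72, adjusted p = 0.00324), and S100a1 did not pass at -0.28 (adjusted p = 0.0675).

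**Figure D3:**
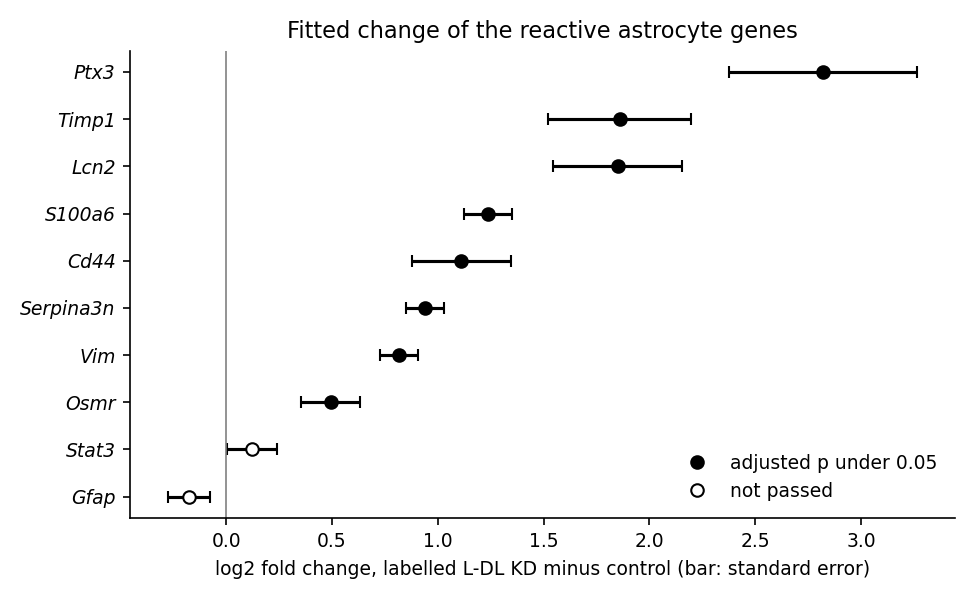
Fitted log2 fold change (libraries labelled L-DL KD minus control) of each of the 10 genes with its standard error, in order of size. Filled points passed an adjusted p of 0.05, and the open points are Gfap at -0.18 and Stat3 at 0.12.

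In the controls, the order of levels per kilobase of exon was Gfap (631 CPM per kb), Serpina3n (219), Vim (85.1), S100a6 (16.8), Stat3 (16.2), Timp1 (7.81), Lcn2 (6.39), Cd44 (6.05), Osmr (5.07) and Ptx3 (1.16). S100a6 and Stat3 did not differ beyond their spread, and neither did neighbours among Timp1, Lcn2, Cd44 and Osmr. In the L-DL KD-labelled libraries, S100a6 stood at 39.5, Timp1 at 28.4, Lcn2 at 23.1, Stat3 at 17.7, Cd44 at 13.1, Ptx3 at 8.22 and Osmr at 7.14 CPM per kb. Timp1 and Lcn2 thus had higher mean levels than Stat3 in this group and lower ones in the controls. Lengths were the union of all annotated exons of a gene, so the order between genes depends on the annotation.

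The members shared their lowest control. Control replicate 3 was the lowest control for all 10 genes, against 35.6% of tested genes. L-DL KD replicate 3 was the highest of its group for 5 members (Gfap, Osmr, Stat3, Cd44 and Ptx3), replicate 2 for 3 and replicate 1 for 2. With control replicate 3 left out, 7 members were called higher and the median log2 fold change was 0.91. Across the 6 libraries the closest profiles within the group were those of Vim and Serpina3n, whose centred log2 CPM differed by 0.0721 on average (root mean square), and then those of Gfap and Stat3 at 0.151. Gfap and Ptx3 were farthest apart, at 1.47.

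Other genes used to describe reactive astrocytes gave a mixed picture. Of 6 further genes shared by most reactive states, 3 rose. Hspb1, a small heat shock protein, went from 30.3, 37.3 and 35.6 CPM to 148, 160 and 173 CPM (log2 fold change 2.22, adjusted p = 6.45e-05). Cp, which encodes ceruloplasmin, rose by 1.04 (adjusted p = 0.000428) and S1pr3, a sphingosine phosphate receptor, by 1.02 (adjusted p = 0.00332). Steap4 stood at 1.17 (adjusted p = 0.0727), Aspg at 0.38 (adjusted p = 0.150) and Cxcl10, a chemokine, at 0.23 (adjusted p = 0.527).

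Genes assigned to the A2 type, described after ischaemia, gave 6 called higher of 10 tested, with a median of 0.84. Cd109 rose most, by 2.57 (adjusted p = 6.45e-05), followed by Emp1 with 1.85 (adjusted p = 0.00101) and Cd14 with 1.82 (adjusted p = 0.000972). Ptgs2, which encodes cyclooxygenase-2, did not pass at -0.32 (adjusted p = 0.146), nor did Sphk1 at -0.01 (adjusted p = 0.993). Genes assigned to the A1 type, described after inflammation, gave 3 higher and 1 lower of 11 tested, with a median of 0.06. Fbln5 rose by 2.00 (adjusted p = 0.000189), Serping1, a complement inhibitor, by 1.35 (adjusted p = 0.000192) and Ggta1 by 0.58 (adjusted p = 0.0162). Amigo2 fell with -0.62 (adjusted p = 0.0122), and the interferon induced Iigp1 did not pass at -0.73 (adjusted p = 0.105). The difference between the A1 and A2 lists was not tested.

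The 13 homeostatic astrocyte markers gave 3 called higher, 4 called lower and a median log2 fold change of -0.04. Without L-DL KD replicate 1, 6 were called higher and 4 lower, and with scaling to their own sum 3 were higher and 2 lower. Aqp4, the water channel of astrocyte end feet, rose by 0.67 (adjusted p = 0.00175) and Atp1b2, a sodium pump subunit, by 0.61 (adjusted p = 0.0029). Gja1, which encodes connexin 43, fell with -0.67 (adjusted p = 0.0013), as did the glycolytic enzyme Aldoc with -0.61 (adjusted p = 0.00205). Their summed level was 8367 to 8557 CPM in the controls and 6910 to 8732 CPM in the L-DL KD-labelled libraries. Expressed as a percent of this sum within each library, the same 8 members stayed non-overlapping and higher. Vim went from 4.79% ± 0.575 to 9.0% ± 0.984, and Lcn2 from 0.20% ± 0.0935 to 0.774% ± 0.180. Gfap stood at 31.6% ± 2.93 and 29.6% ± 2.33 with overlapping groups.

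Markers of other cells that express several of these genes moved at the same time. In whole tissue RNA, more cells of a type cannot be told apart from more RNA per cell. All 10 microglia markers rose, with a median of 1.11, and their summed level was 966 to 1215 CPM in the controls and 2130 to 2647 CPM in the L-DL KD-labelled libraries. Itgam (1.58, adjusted p = 0.000799) and Cx3cr1 (1.53, adjusted p = 8.9e-05) were highest, and Tmem119 (0.60, adjusted p = 0.0118) and P2ry12 (0.57, adjusted p = 0.00782) lowest. All 6 fibroblast markers rose, with a median of 1.53 and sums of 60.4 to 94.8 CPM against 134 to 277 CPM, led by Col3a1 (1.92, adjusted p = 0.00325) and Col1a1 (1.69, adjusted p = 0.00831), with Slc6a13 (1.38, adjusted p = 0.0342) and Dcn (0.90, adjusted p = 0.0386) lowest. Of 8 endothelial and mural markers 6 rose, with a median of 0.70, among them Cldn5 (1.08, adjusted p = 0.00296) and Pdgfrb (1.01, adjusted p = 0.000864), while Rgs5 (0.47, adjusted p = 0.0138) and Flt1 (0.10, adjusted p = 0.591) were lowest. All 10 neuron markers fell, with a median of -0.83 and sums of 9048 to 9569 CPM against 5062 to 6021 CPM, but 6 of the 10 were called lower without control replicate 1 and 6 when scaled to the homeostatic astrocyte markers. Their part in the rise of the 8 members was not tested.

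**Figure D4:**
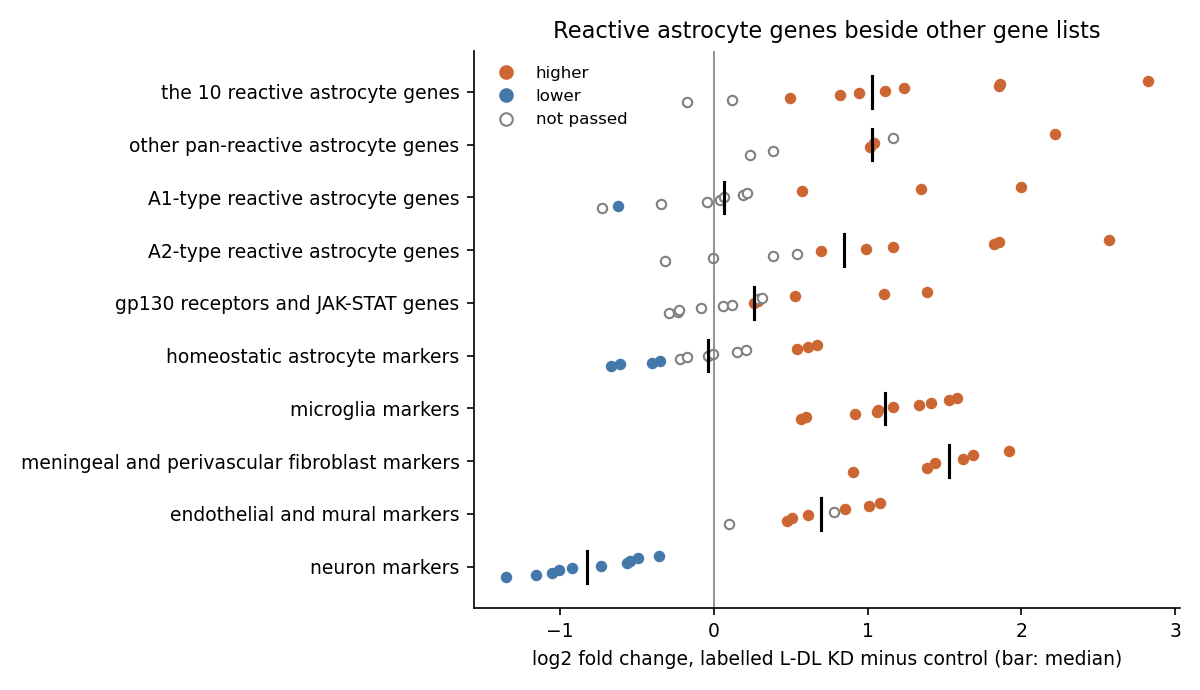
Log2 fold change (libraries labelled L-DL KD minus control) of each tested gene in the reactive astrocyte group and in 9 other lists, with black bars for list medians and filled points for genes past an adjusted p of 0.05. The 10 reactive astrocyte genes have a median of 1.03, near that of microglia markers at 1.11, whereas homeostatic astrocyte markers centre on -0.04.

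The splicing table held 36 events in 8 of the members and none for Serpina3n or Ptx3. Inclusion (PSI) is the share of transcripts that keep a segment, computed from junction reads divided by the effective length of each form. Of the 36 events, 17 had enough reads, and 0 were called at an adjusted p under 0.05 (edgeR on inclusion against skipping counts), against 0.255% of 18829 events tested in the whole table. By limma 0 of the 17 were called as well. At an unadjusted p under 0.05 there were 2, against 13.3% of all tested events. The table does not number its libraries, so they are given in its own order.

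Only the Cd44 exon printed above had groups that did not overlap among the 17 tested events, against 18.4% of all tested events. Its inclusion was 0.0105, 0.0612 and 0.0169 in the controls and 0.114, 0.0769 and 0.103 in the L-DL KD-labelled libraries. The group means were 0.0296 ± 0.0276 and 0.0980 ± 0.0190 (SD, n = 3). The change gave an unadjusted p = 0.0229 and an adjusted p = 0.309 (edgeR), so it did not pass. The control values rest on 1, 3 and 1 inclusion reads beside 47, 23 and 29 skipping reads. In the other group 20, 10 and 24 inclusion reads stood beside 78, 60 and 104 skipping reads, so most Cd44 reads at this site joined the constant exons directly in both groups.

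For Stat3, the 50-base segment that separates the full length form from STAT3β was kept at 0.877 ± 0.0509 in the controls and 0.916 ± 0.0298 in the L-DL KD-labelled libraries, with overlapping groups (adjusted p = 0.642, edgeR). The 3-base segment at the tandem donor was kept at 0.865 ± 0.0175 and 0.826 ± 0.0349, again overlapping (adjusted p = 0.688). An event listed as mutually exclusive Stat3 exons had an adjusted p of 0.997, but the exons of this pair were each kept almost always. For the exon chr11:100895064-100895162 of this pair, inclusion was 0.989 and 0.988 (adjusted p = 0.988). The full length form thus dominated in each library.

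**Figure D5:**
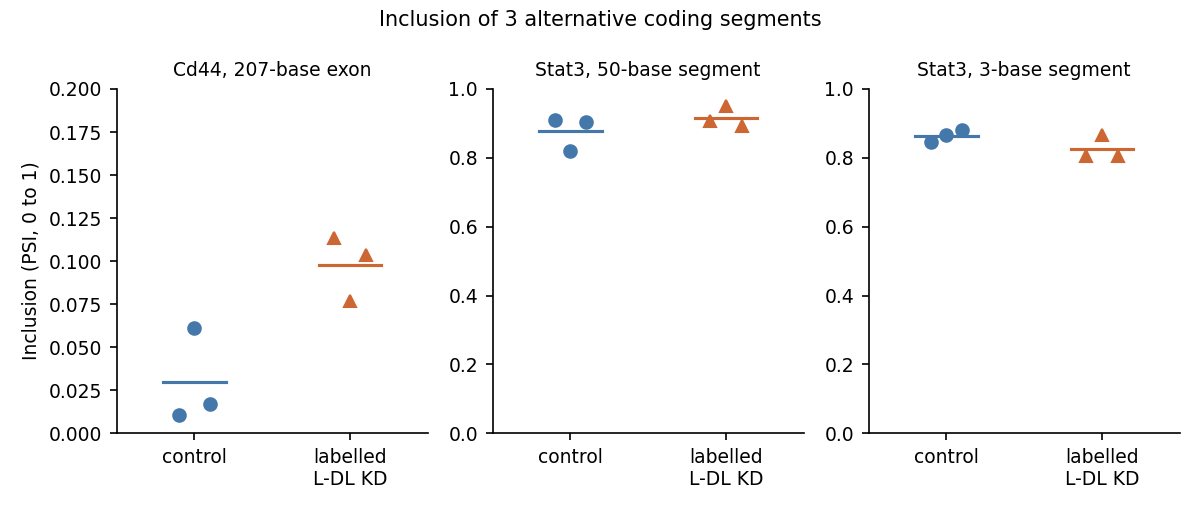
Inclusion (PSI, from 0 to 1) of the Cd44 variable exon and of both Stat3 segments in each library, with controls as circles, libraries labelled L-DL KD as triangles and bars at group means; the Cd44 axis ends at 0.2. The Cd44 triangles, from 0.0769 to 0.114, lie above its circles, and both Stat3 panels overlap.

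Gfap had 5 tested events at 4491 to 12605 reads a library. Skipping of its internal exon chr11:102894378-102894539 was the other event with an unadjusted p under 0.05, at an adjusted p = 0.336 (edgeR), with overlapping groups and nearly complete inclusion in both. That event rests on 3, 3 and 0 skipping reads in the controls and 0 in each L-DL KD-labelled library. Inclusion reads summed to 33925 in the controls and 33849 in the other group. Other skipped Gfap exons, chr11:102891911-102891954 and chr11:102895473-102895568, had adjusted p-values of 0.768 and 0.808. The 2 Gfap events listed as mutually exclusive exons had 0.958 and 0.967, but their exons were each kept almost always. In Timp1, inclusion of the exon chrX:20872777-20872856 was 0.971 ± 0.0496 and 0.915 ± 0.0728 (adjusted p = 0.787). The 2 Timp1 events listed as mutually exclusive exons had adjusted p-values of 0.819 and 0.855, but their exons were each mostly kept. Osmr, Lcn2 and Vim events had adjusted p-values from 0.884 to 0.979, with the retained Lcn2 intron at 0.0109 ± 0.0071 and 0.0158 ± 0.0145.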

How the data were processed

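Hippocampal mRNA of 6 mice, 3 per group, was selected with oligo(dT) and read by the authors as 150 nt pairs. Files deposited by the authors hold whole-number counts of reads on each Ensembl gene (GRCm38, Ensembl 90), not normalized, and a junction table from rMATS v4.1.0, whose inclusion and skipping counts per library stand in a single cell for each group. The submitters' processing notes name Bowtie (version 1.1.2), HISAT2 (version 2.1.0) and HTSeq (version 0.6.1) without roles. The first set of the junction table was taken as L-DL KD from the stated definition of the PSI change, and per-gene changes of junction and gene counts correlated across 7044 genes with r = 0.944, where genes are not independent replicates. The table's p-values, FDR and PSI differences are the authors' own comparison and were not used. 0 columns of values per sample were left unmapped.

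A gene entered the test when 3 or more libraries had 10 counts or more. TMM scaling and the quasi-likelihood test came from edgeR (version 4.0.16) in R (version 4.3.3), with Benjamini-Hochberg adjustment over all tested genes and a threshold of 0.05. Events needed a mean of 20 junction counts a library and of 1 for each form. Their junction counts were tested in edgeR as inclusion against skipping within each library, and the tested term was the group difference of this contrast. Both fits were tested on simulated data. Gene positions, exon lengths and overlaps come from GENCODE vM21 (GRCm38). Figures used Python (version 3.11.15) with matplotlib (version 3.10.9). DESeq2 (version 1.42.0), limma (version 3.58.1), other scalings and filters, a block by replicate number and fits that left out a library were alternatives.

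The members and the gene lists were chosen with earlier results of these data known. Genes named are all 10 members, Hnrnpdl, the 2 highest and 2 lowest of each list, the ligands, receptors, inhibitors and paralogs of members, and the 3 profiles nearest to Gfap and to Ptx3, of which 1 is not reported here. Further genes of the lists were named after their values were seen. Events named are the tested events of the members, the 3 smallest p for a member with over 6. The promoter motifs, and which promoters were printed, were chosen after matches were seen. Of same-numbered libraries, deviations from the group means correlated with r = 0.117, 0.293 and -0.257 over 11019 genes, so the numbers were not taken as pairs. Libraries of a group differed by more than sampling noise (chi-square per gene 7.49 to 33.7).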

Additional observations from a re-analysis of the deposited data

How the results depend on the processing

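Of the 10 reactive astrocyte genes, 7 or 8 were called higher and 0 lower in each of the 13 alternative fits, and no member changed sign. Osmr alone lost its call, without L-DL KD replicate 2, without each control and in the fit with a replicate block, which gave it an adjusted p of 0.064 (edgeR). With that block 7 members and 4635 genes were called. In leave-one-out fits the median member log2 fold change ranged from 0.91 to 1.09 and the number of genes called from 3498 to 6477, against 1.03 and 5379. Scaling to the summed homeostatic astrocyte markers raised the median member to 1.11 and that of all genes to 0.10. Its calls were 2521 higher and 1144 lower, against 2743 and 2636. For junctions, 0 member events were called in each alternative, while calls over the whole table ran from 0 to 766 (limma), against 48. The sign of the inclusion change turned in at least 1 alternative in 8 of the 17 tested member events, all uncalled. In the other 9 it held in each alternative that tested them, as some fits dropped events with too few reads. Without effective lengths the rise in Cd44 exon inclusion was 0.122, against 0.0684. No paired analysis was possible because the junction table does not number its libraries; this holds for the splicing events only. At 3 libraries a group, an exact permutation test cannot give a p under 0.1. Low counts limit Ptx3 and Timp1 in the controls (27 to 69 and 63 to 163 counts) and the Cd44 exon.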

Other observations

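Profiles nearest to that of Gfap across the 6 libraries, by the root mean square difference of centred log2 CPM, were those of Mknk2 (0.0175), which encodes a kinase of translation initiation factor eIF4E, Nt5c3 (0.0279), a nucleotidase gene, and Cdkl3 (0.0379). Mknk2 had 73.2, 78.3 and 65.3 CPM in the controls and 58.4, 65.3 and 71.0 CPM in the L-DL KD-labelled libraries. Profiles near that of Ptx3 lay farther off, with Bdkrb2 at 0.350 and Greb1 at 0.402. Bdkrb2, which encodes the bradykinin B2 receptor, had 0.431, 0.765 and 0.254 CPM in the controls and 7.77, 4.04 and 8.16 CPM in the other group. These are descriptions over 6 libraries, and likeness of profile says nothing of shared control.

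Of 4 precursor markers 3 rose, with Gpr17 at a log2 fold change of 0.93 (adjusted p = 0.00603), Cspg4 at 0.60 (adjusted p = 0.00137) and Pdgfra at 0.46 (adjusted p = 0.00134), and Olig1 did not pass at 0.10 (adjusted p = 0.555). Of 7 markers of mature oligodendrocytes 1 rose, Mag, by 0.71 (adjusted p = 0.00972). Mog stood at 0.40 (adjusted p = 0.182), Mbp at 0.03 (adjusted p = 0.862) and Mobp at -0.20 (adjusted p = 0.313). Of 6 T cell markers 1 fell, Trac, with -0.86 (adjusted p = 0.0151), and from 0 to 2 were called lower over the alternative fits. Cd3d stood at -1.02 (adjusted p = 0.103), Cd8a at -0.04 (adjusted p = 0.918) and Trbc2 and Cd4 at -0.57 each. Of 2 neutrophil markers tested 0 passed by edgeR, DESeq2 or limma-voom, and 0 had an unadjusted p under 0.05, with Ngp at 0.91 (adjusted p = 0.490) and S100a9 at 0.04 (adjusted p = 0.974). Of 10 neuron markers, all called lower (6 without control replicate 1), Rbfox3 (-1.35, adjusted p = 0.000135) and Gad2 (-1.16, adjusted p = 0.0129) were lowest, and Slc17a7 (-0.49, adjusted p = 0.0281) and Map2 (-0.36, adjusted p = 0.0221) highest.

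Of 5 markers of ependyma and choroid plexus 0 passed by edgeR, with 1 higher at an unadjusted p under 0.05 and by DESeq2, Foxj1 (0.52, adjusted p = 0.0992). Their summed level ran from 453 to 4515 CPM among the controls and from 67.8 to 5085 CPM among the L-DL KD-labelled libraries. Ttr, the choroid plexus transthyretin gene, had 1520, 372 and 4183 CPM in the controls and 4689, 93.8 and 13.9 CPM in the other group. Ttr stood at -0.34 (adjusted p = 0.897), Kl at -0.40 (adjusted p = 0.825) and Folr1 at -0.22 (adjusted p = 0.920). Within each group, the order of libraries by Ttr was the reverse of that by Gfap. Control replicate 3, the lowest control for all 10 members, had the highest Ttr of the controls. By Vim and by Ptx3 the libraries stood in other orders, and a relation to Ttr was not tested.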
